A study of Homo sapiens with 20 samples.

Results

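The genes described here are 47 genes of DNA replication and S phase, followed in MCF 10A cells after transfection of a mimic of miR-4728-3p or of miR-1. They were taken from a list of gene symbols, with all their probes in both array tables, and 46 of the 47 were measured above the level set for testing in each experiment, against 11820 genes tested with miR-4728-3p and 11899 with miR-1. The exception in both was CCNE2, one of the E-type cyclins of S phase entry, whose only probe averaged log2 intensities of 6.11 in miR-4728-3p mimic arrays and 6.25 in their controls, and 6.08 in miR-1 mimic arrays and 5.98 in their controls, under the filters of 6.36 and 6.17.

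MCF 10A is an immortalized, non-tumorigenic breast epithelial line. Cells were transfected with a cationic lipid and RNA was taken 32 hours later. The miR-4728-3p mimic was put on 6 arrays and its control on 6, and in the other experiment the miR-1 mimic and its control had 4 each, the controls being cells given a non-targeting control in place of a mimic. The labels name an siRNA as the control of the miR-4728-3p experiment and only a non-targeting control for miR-1. They give 100 nM for every sample, whereas the methods name a lower concentration as well. The experiments were run on different versions of the Illumina HumanHT-12 array and share no arrays. All samples are of a single cell line, so the p-values describe the spread between transfections called biological replicates in the methods.

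Replication is prepared in G1, when the origin recognition complex, CDC6 and CDT1 load the ring of MCM2 to MCM7 onto DNA, a step called licensing. On entry into S phase, CDC45 and the GINS complex join the ring to form the active helicase, RPA coats the exposed single strand, primase and polymerase alpha lay down primers, the RFC complex loads the PCNA clamp, and polymerases delta and epsilon copy the strands. Most of these genes are transcribed under the control of E2F factors, which RB holds back until a cell commits to division, so their mRNAs are widely used as a readout of proliferation.

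The transfected molecules carry different seeds, the bases by which a miRNA recognizes most of its targets. The mature sequences are shown to define the mimics, as given by RefSeq for GRCh38.p14. They read 5′ to 3′ with the seed (bases 2 to 8) in capitals. Mimics and controls can differ in more than sequence, the control named by the labels for miR-4728-3p being an siRNA. The miR-4728-3p sequence lies at chr17:39726537-39726561 on the + strand, and miR-1-3p is encoded at chr20:62554351-62554372 (+ strand, MIR1-1) and at chr18:21829015-21829036 (- strand, MIR1-2).
hsa-miR-4728-3p: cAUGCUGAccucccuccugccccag
hsa-miR-1-3p: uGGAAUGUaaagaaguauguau
They are 25 and 22 bases long, and the seeds AUGCUGA and GGAAUGU have the DNA complements TCAGCAT and ACATTCC. For miR-4728-3p the paper also describes an internal seed that extends past the capitals. Its matches gave the paper's strongest signal among genes lowered by this mimic. Transcript sequences of the members were not used here, so matches to either kind of seed were not counted.

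As E2F control is the feature the members are best known for, their promoters were searched in RefSeq's windows of 300 bases, from 250 before to 50 after a start site. Windows were found for 40 members. An E2F word, any of TTTCCCGC, TTTCGCGC, TTTGCCGC and TTTGGCGC on either strand, was present for 21 of these 40 (52.5%), against 4.0% of the 27305 genes with a window. CCAAT, the NF-Y box, was present on either strand for 25 of 40 (62.5%, against 39.7% of all genes), and TTTGAA, the core of the CHR element of G2 and M phase genes, for 2 of 40 (5.0%, against 18.2%); a CCAAT or a second E2F word can share bases with an E2F word. The following stretches of 30 bases are shown because their genes recur in the results below; each reads 5′ to 3′ on the gene's strand and has the E2F word in capitals, and CDT1, GINS2, RFC3 and TYMS carry it as GCGGGAAA, the reverse complement of TTTCCCGC.
RFC3, chr13:33818083-33818112, + strand: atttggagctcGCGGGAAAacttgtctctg
GINS2, chr16:85688967-85688996, - strand: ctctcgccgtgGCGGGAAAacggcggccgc
CDT1, chr16:88803743-88803772, + strand: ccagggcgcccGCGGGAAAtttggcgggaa
MCM3, chr6:52284898-52284927, - strand: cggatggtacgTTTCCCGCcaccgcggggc
TYMS, chr18:657603-657632, + strand: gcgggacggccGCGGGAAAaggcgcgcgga
The words of RFC3, GINS2, CDT1 and TYMS begin 55, 31, 35 and 39 bases before the start site, and that shown for MCM3 begins 174 bases before it, a second MCM3 word (TTTCGCGC) beginning 4 bases before it. The windows of RRM2 and RFC1 hold none of the E2F words, though both hold CCAAT. A match of letters is not evidence of binding, and the lack of these words is not evidence against it.

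Of array quality, only the median raw intensity is given here, and its ranges overlapped between mimic and control arrays in each experiment. Median raw intensities were 113 to 134 in miR-4728-3p mimic arrays and 101 to 135 in their controls, and 107 to 121 in miR-1 mimic arrays and 92 to 114 in their controls. Of 11 genes chosen as markers of basal breast epithelium, the 8 matched by symbol were all above the filter, whereas CD3E, PTPRC, VWF and CDH5, which define blood and endothelial cells, and the collagen genes COL1A1, COL1A2 and COL3A1 were below it. Another 3 of the 7 blood and endothelial markers were above it in each experiment, as were 2 of 6 fibroblast markers in the miR-4728-3p experiment and 1 of 6 in the miR-1 experiment. The summed intensity of the 7 blood and endothelial markers was 2052 to 3555 in miR-4728-3p mimic arrays and 1453 to 2134 in their controls. Of the 3 above the filter, 1 was called higher with miR-4728-3p (against 3.94% of all genes). The summed intensity of the 8 epithelial markers was 10623 to 11403 in miR-1 mimic arrays and 8508 to 8947 in their controls. Of these 8, 2 were called higher with miR-1 (against 1.45% of all genes). With miR-4728-3p, 23 of the 23 tested genes of an interferon response list were higher, by 1.66 to 6.29 on the log2 scale (6 arrays a group), while 0 of the 20 tested were called with miR-1 (limma, 0 also at an unadjusted p under 0.05). The part of these differences in the values of the replication genes was not tested.

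With the miR-4728-3p mimic, GINS2 was the only replication gene that passed the test, and it was down regulated. GINS2 encodes a subunit of the GINS complex of the replicative helicase. Of the 46 members tested by limma, 1 was lower (2.17%, against 3.8% of all genes) and 0 were higher (against 3.94% of all genes, and 7.74% either way), at a Benjamini-Hochberg adjusted p under 0.05 over all probes tested. At an unadjusted p under 0.05, 9 members were lower (19.6%, against 11.2% of all genes) and 1 was higher (2.17%, against 8.1%). The higher one was GINS1, whose control arrays averaged under the filter. The log2 fold changes of 35 of the 46 members were below 0 (76.1%, against 56.1% of all genes) and those of 11 above it (against 43.9%), with a median of -0.06 over the members and -0.02 over all genes. That lean depended on the scaling: with the arrays scaled to a common median in place of quantile normalization, 23 of 46 members were below 0 and the median was 0.00, while the median of all genes was 0.03. Counted against the median of all genes, 31 of 46 members lay below it with quantile normalization and 29 with median scaling. The choice of probe mattered too: with the probes of a gene averaged, 31 of 46 members were below 0 and 28 below the median of all genes.

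The normalized log2 intensity of GINS2 was 11.45, 10.90, 11.34, 11.31, 11.11 and 11.45 on the miR-4728-3p mimic arrays, against 11.78, 11.66, 11.56, 11.60, 11.63 and 11.52 on the control arrays. Every mimic array was thus below every control array, and mimic 2 was the lowest. The difference was -0.36 ± 0.11 (SE, n = 6 arrays a group; limma adjusted p = 0.0376), that is 0.777 times the control. The call was close to the threshold: the adjusted p was 0.371 with median scaling, 0.0807 with a smaller background offset, 0.0702 with no filter and 0.058 with array weights, and leaving out any of mimic 2, 4 or 5 or of control 1 to 5 lost it (adjusted p 0.107, 0.0513, 0.0962, 0.0827, 0.0754, 0.0547, 0.062 and 0.064). Its partners in the complex did not pass, with 0.25 ± 0.10 (SE; adjusted p = 0.180) for GINS1, -0.05 for GINS3 and -0.06 for GINS4, and the median of the 4 GINS genes was -0.05, or 0.01 under median scaling. GINS1 was near the floor, with mean log2 intensities of 6.57 in mimic arrays and 6.33 in control arrays. The latter is under the filter of 6.36, so GINS1 was tested only through its mimic arrays. CDC45, which joins GINS on the MCM ring, gave -0.07.

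TYMS, which makes thymidylate for DNA synthesis, was the other member whose groups did not overlap. Its log2 intensities were 11.29, 11.39 and 11.54 (lowest, median and highest) in mimic arrays and 11.56, 11.71 and 11.76 in control arrays, a difference of -0.29 ± 0.09 (SE, n = 6; limma adjusted p = 0.0630), which did not pass. TYMS passed in 5 of the 10 other settings (adjusted p 0.0188 to 0.0284), among them the values normalized by the authors (0.02), and in the rest its adjusted p reached 0.566 under median scaling; without mimic 3 it passed as well (0.0489). Groups that did not overlap with the mimic lower were found for 2 of 46 members (4.35%) and 2.64% of all genes, and with the mimic higher for 0 members and 2.94% of all genes. The other genes of nucleotide supply gave values near 0, with 0.09 for RRM2 and -0.09 for RRM1, the subunits of ribonucleotide reductase, and 0.02 for TK1, thymidine kinase.

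Among the other members with the largest differences, UHRF1, which helps to carry DNA methylation over to the new strand, had log2 intensities of 10.88, 11.40 and 11.62 in mimic arrays and 11.49, 11.74 and 11.88 in control arrays, a difference of -0.35 ± 0.12 (adjusted p = 0.0988). Only its brighter probe gave this value, the other giving -0.01. MCM10, which helps to activate the helicase, ranged over 9.84, 10.11 and 10.28 in mimic arrays and 10.16, 10.33 and 10.66 in control arrays (-0.28 ± 0.11, adjusted p = 0.165), its other probe giving -0.08 and the mean over both -0.18. These groups overlapped in both genes.

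Licensing genes had the lowest median of the roles with several members, -0.19 over 11 genes, of which 9 were below 0 (against 56.1% of all genes) and 0 passed limma's test (unadjusted, 5 lower, against 11.2% of all genes, and 0 higher). Under median scaling their median was -0.11, with 7 of 11 below 0, and with the probes of a gene averaged it was -0.13, with 8 of 11 below 0. The 11 include MCM10, which helps to activate the helicase and gave the lowest value of them (-0.28). No median was taken without it. MCM2 had 9.38, 9.53 and 9.79 in mimic arrays and 9.67, 9.75 and 9.99 in control arrays (-0.26 ± 0.10, adjusted p = 0.144). CDT1, the loading factor, had 9.23, 9.59 and 9.73 in mimic arrays and 9.40, 9.79 and 10.05 in control arrays (-0.25 ± 0.11, adjusted p = 0.260). Within the MCM ring, MCM2, MCM3, MCM5, MCM6 and MCM7 gave -0.05 to -0.26 and MCM4 gave 0.12, a median of -0.21 that was -0.14 under median scaling. ORC1, ORC6 and CDC6, the factors that mark origins, gave 0.03, -0.01 and -0.03, although the dimmer probe of ORC6 gave 0.27 ± 0.09 (adjusted p = 0.101).

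The other roles stayed closer to 0 with miR-4728-3p. PCNA and its loader RFC1 to RFC5 gave -0.11 to 0.06, though their single probes ranged from -0.16 (RFC3) to 0.14 (PCNA). The polymerase and primase subunits gave -0.21 (POLA1, the catalytic subunit of polymerase alpha) to 0.16 (POLD1, that of polymerase delta). By limma 0 of these 14 were called, and 1 was lower at an unadjusted p under 0.05 (against 11.2% of all genes). The medians of both groups and of the GINS genes changed sign under median scaling. PRIM2, the large primase subunit, had a second probe that passed the test at 0.36 ± 0.10 (adjusted p = 0.0362), although its brighter probe, which stands for the gene here, gave 0.05.

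**Figure D1:**
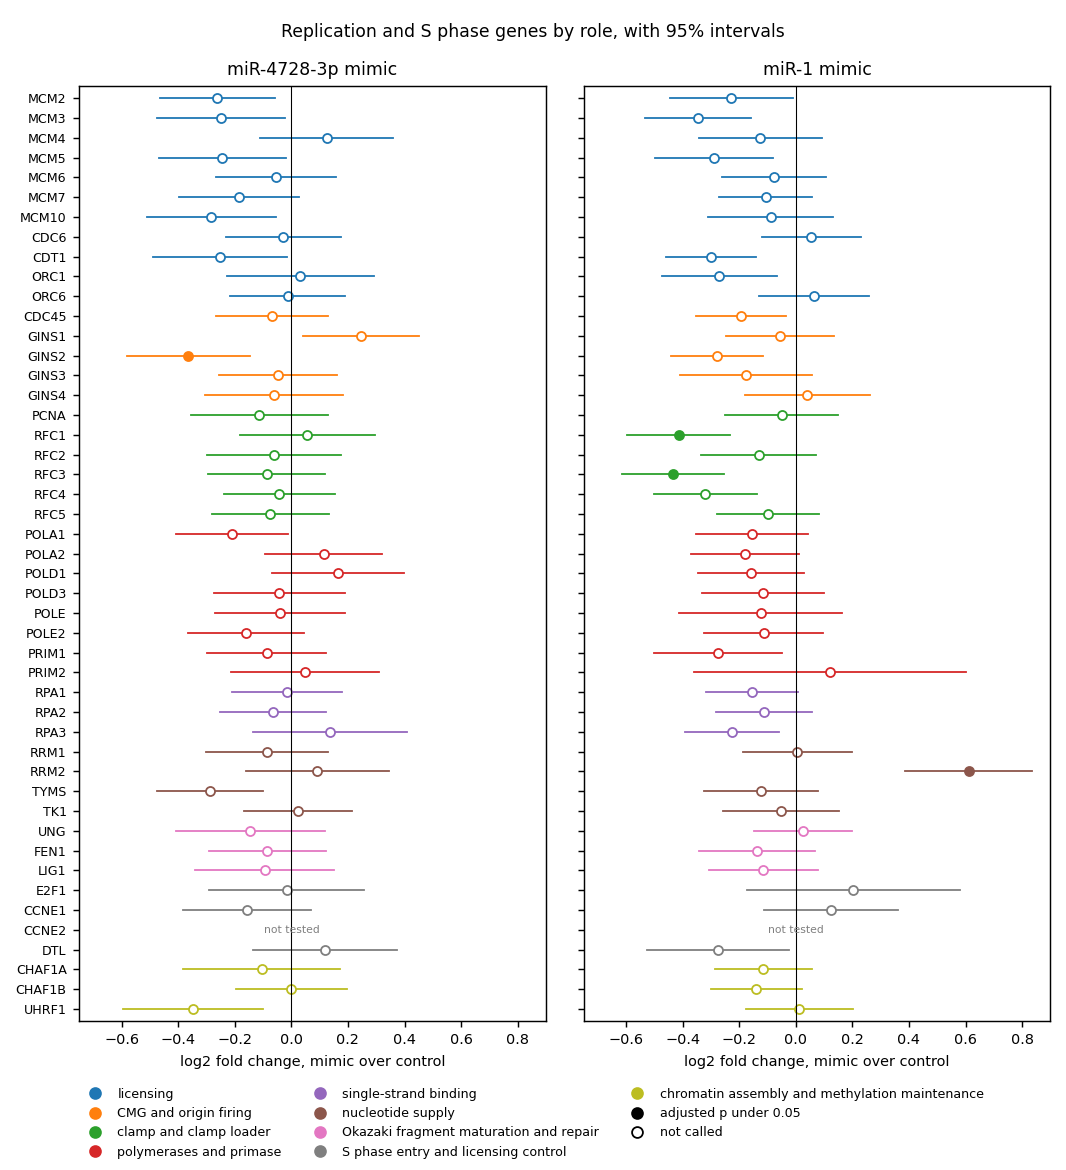
Log2 fold change of mimic over control (x axis) for each of the 47 genes, grouped by role, in the miR-4728-3p experiment (left, 6 arrays a group) and the miR-1 experiment (right, 4 arrays a group); points are estimates, lines are 95% confidence intervals and filled points passed the test. GINS2 is filled on the left, RFC1, RFC3 and RRM2 are filled on the right, and CCNE2 was not tested.

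With the miR-1 mimic, the clamp loader genes RFC3 and RFC1 were down regulated and RRM2, the regulatory subunit of ribonucleotide reductase and the enzyme's limiting part in S phase, was higher. Of the 46 members, 2 were lower (4.35%, against 1.24% of all genes) and 1 was higher (2.17%, against 1.45% of all genes, and 2.69% either way) by limma at an adjusted p under 0.05. At an unadjusted p under 0.05, 13 members were lower (28.3%, against 8.35% of all genes) and 1 was higher (2.17%, against 7.19%). Groups that did not overlap were found for 9 members with the mimic lower (19.6%, against 5.73% of all genes) and 1 with the mimic higher (2.17%, against 5.02%). The log2 fold changes of 36 of 46 members were below 0 (78.3%, against 51.8% of all genes), or 34 under median scaling, and those of 10 were above it (against 48.2%). Their median was -0.12 and that of all genes -0.01, and under median scaling these were -0.07 and 0.03.

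RRM2 was the only member called higher, among 10 with values above 0. Its log2 intensity was 8.52, 8.66, 8.91 and 8.59 on the miR-1 mimic arrays and 7.93, 8.30, 8.07 and 7.95 on the control arrays, so that the lowest mimic array was above the highest control array. The difference was 0.61 ± 0.10 (SE, n = 4 arrays a group; limma adjusted p = 0.00621), a 1.53-fold higher level, measured with the gene's only probe. The call held under all 10 other processing settings (0.54 to 0.68, adjusted p 0.00233 to 0.0303) and on leaving out each of the 8 arrays (adjusted p 0.00501 to 0.034). RRM1, the catalytic subunit, gave 0.01, TYMS -0.12 and TK1 -0.05, and none of these 3 passed.

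RFC3, a small subunit of the clamp loader, had log2 intensities of 8.50, 8.29, 8.40 and 8.33 on the miR-1 mimic arrays and 8.91, 8.66, 8.78 and 8.92 on the control arrays. RFC1, the large subunit, had 8.68, 8.85, 8.85 and 8.80 on the mimic arrays and 9.23, 9.02, 9.35 and 9.22 on the control arrays. The groups were separate in both genes. The differences were -0.43 ± 0.08 for RFC3 (adjusted p = 0.0137) and -0.41 ± 0.09 for RFC1 (adjusted p = 0.0198; SE, n = 4, limma).

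Each of these calls rested on the brightest probe of its gene. The other probe of RFC1 gave -0.07 (adjusted p = 0.796) and the other probes of RFC3 gave -0.07 and -0.18 (adjusted p = 0.852 and 0.497), so that with the probes of a gene averaged neither passed (adjusted p = 0.0564 for RFC1 and 0.130 for RFC3). Both calls were also lost under median scaling (adjusted p = 0.310 for RFC1 and 0.153 for RFC3), RFC1's with an offset of 16 (0.0696), RFC3's without control 1 or control 4 (0.0533 and 0.0613), and RFC1's without mimic 1, mimic 3, control 1, control 3 or control 4 (0.0569, 0.0517, 0.0623, 0.0661 and 0.0731). Where in the transcripts these probes lie was not analysed here.

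RFC4, another small subunit, differed less but alike on both of its probes. The probe that stands for it had 10.48, 10.18, 10.44 and 10.23 on the mimic arrays and 10.64, 10.61, 10.64 and 10.73 on the control arrays, a difference of -0.32 ± 0.09 (adjusted p = 0.0781). Its other probe gave -0.35 ± 0.09 (adjusted p = 0.0570), again with separate groups. Averaged over both probes, RFC4 passed (adjusted p = 0.0196). RFC2 and RFC5 gave -0.13 and -0.10, so that all 5 loader genes were below 0, with a median of -0.32 that was -0.28 under median scaling, and PCNA, the clamp that they load, gave -0.05.

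**Figure D2:**
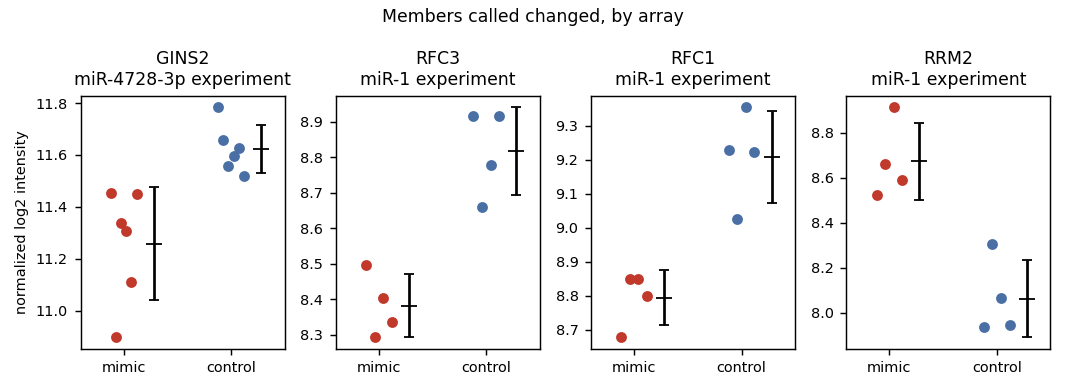
Normalized log2 intensity (y axis, each panel on its own range) on each array for the 4 members that passed the test, mimic on the left and control on the right of each panel; points are arrays and the bars beside them are mean ± SD. In none of the 4 panels do the groups overlap: GINS2, RFC3 and RFC1 are lower and RRM2 is higher in mimic arrays.

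**Figure D3:**
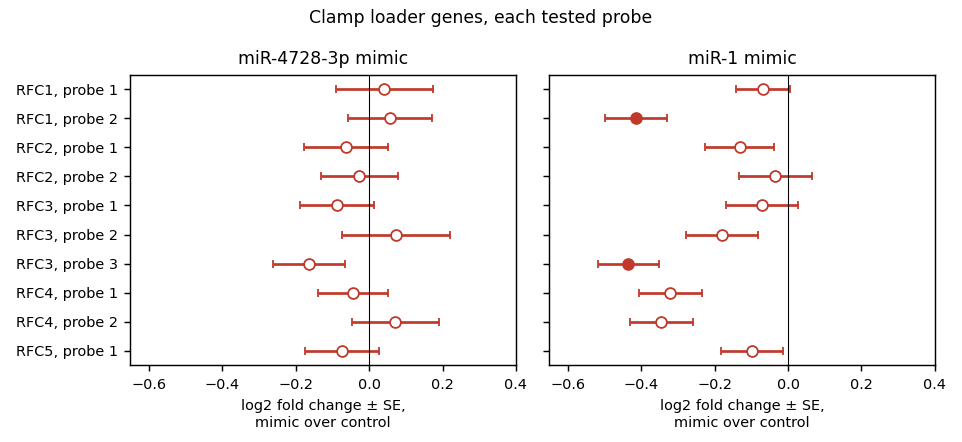
Log2 fold change of mimic over control ± SE (x axis) for each tested probe of RFC1 to RFC5, with miR-4728-3p on the left (6 arrays a group) and miR-1 on the right (4 arrays a group); filled points passed the test. With miR-1 the filled probes of RFC1 and RFC3 lie at -0.41 and -0.43 while their other probes lie between -0.07 and -0.18, and both RFC4 probes lie near -0.3.

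The 6 genes of the MCM ring all had values below 0 with miR-1 (against 51.8% of all genes). Their median was -0.18, or -0.12 under median scaling. By limma's test 0 of the 6 passed, and 3 were lower at an unadjusted p under 0.05 (against 8.35% of all genes). MCM3 had log2 intensities of 11.41, 11.47, 11.66 and 11.57 on the mimic arrays and 11.82, 11.96, 12.003 and 11.72 on the control arrays, separate groups with a difference of -0.35 ± 0.09 (limma adjusted p = 0.0606). Its dimmer probe gave -0.21, with groups that overlapped. MCM5 gave -0.29 (adjusted p = 0.186) and MCM2 gave -0.23.

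CDT1, which brings the MCM ring to origins, had 8.45, 8.39, 8.49 and 8.41 on the miR-1 mimic arrays and 8.85, 8.72, 8.64 and 8.73 on the control arrays (-0.30 ± 0.07, adjusted p = 0.0569). ORC1, the largest subunit of the origin recognition complex, had 6.83, 6.78, 6.72 and 6.74 on the mimic arrays and 6.87, 6.87, 7.13 and 7.27 on the control arrays (-0.27 ± 0.10, adjusted p = 0.219). Both pairs of groups were separate, ORC1 by a small gap, and neither gene passed. ORC6 and CDC6, other parts of the licensing machinery, gave 0.07 and 0.05.

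GINS2 had 10.32, 10.09, 10.27 and 10.26 on the miR-1 mimic arrays and 10.46, 10.55, 10.51 and 10.54 on the control arrays (-0.28 ± 0.08, adjusted p = 0.0898), again with every mimic array below every control array. CDC45 had 10.18, 9.99, 10.06 and 10.09 on the mimic arrays and 10.21, 10.30, 10.34 and 10.25 on the control arrays (-0.19 ± 0.07, adjusted p = 0.268). RPA1, the DNA-binding subunit of RPA, had 10.37, 10.30, 10.50 and 10.48 on the mimic arrays and 10.56, 10.52, 10.54 and 10.65 on the control arrays (-0.15 ± 0.08, adjusted p = 0.438), and its other 2 probes gave -0.09 and -0.002. The groups of these 3 genes did not overlap, although none passed the test.

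Polymerase and primase genes ranged over -0.28 (PRIM1, the catalytic primase subunit) to 0.12 (PRIM2) with miR-1. Of these 8, 7 were below 0 (against 51.8% of all genes). By limma 0 were called, and 1 was lower at an unadjusted p under 0.05 (against 8.35% of all genes). The other RPA subunits RPA2 and RPA3 gave -0.11 and -0.23. The genes of Okazaki fragment maturation and uracil repair, FEN1, LIG1 and UNG, gave -0.14, -0.12 and 0.02. E2F1 and CCNE1, which drive entry into S phase, gave 0.20 ± 0.18 and 0.12 ± 0.11, and DTL, which directs CDT1 to degradation, gave -0.27 ± 0.12 (adjusted p = 0.341). CHAF1A and CHAF1B, the subunits that deposit histones behind the fork, gave -0.11 and -0.14, and UHRF1 gave 0.01.

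The members were also followed array by array, as the median over the 46 genes of each gene's deviation from its mean in the experiment. In the miR-4728-3p experiment the lowest, median and highest of these values were -0.16, -0.0035 and 0.02 log2 units on the 6 mimic arrays, and 0.03, 0.05 and 0.09 on the 6 control arrays. In the miR-1 experiment it was -0.01, -0.14, -0.04 and -0.09 on the mimic arrays and 0.07, 0.05, 0.08 and 0.03 on the control arrays. With quantile normalization, mimic arrays were thus below control arrays in both experiments, by less than 0.01 log2 units for the closest arrays of the miR-4728-3p groups. Under median scaling the groups overlapped in both, at -0.14 to 0.15 on mimic arrays and -0.25 to 0.25 on control arrays with miR-4728-3p, and at -0.11 to 0.06 on mimic arrays and -0.21 to 0.20 on control arrays with miR-1. Mimic 2 of miR-4728-3p was the lowest of all 20 arrays, and without it 29 of 46 members were below 0 and the median fold change was -0.05.

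**Figure D4:**
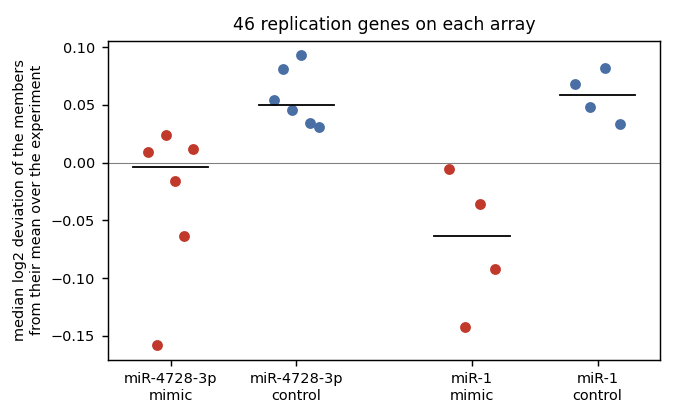
Median log2 deviation of the 46 tested replication genes from their means over the experiment (y axis) on each array after quantile normalization, with each mimic group to the left of its control; points are arrays and lines are group medians. Mimic arrays lie between -0.16 and 0.02 with miR-4728-3p and between -0.14 and -0.01 with miR-1, below control arrays at 0.03 to 0.09 and 0.03 to 0.08; under median scaling the groups overlapped in both experiments.

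Whether the effects differed between the experiments was tested as the miR-4728-3p difference minus the miR-1 difference on a shared probe. Array version, experiment and control cannot be told apart from the mimic in this contrast. By limma 0 of 46 members passed (against 6.02% of the 10246 genes tested), and 7 had an unadjusted p under 0.05 (15.2%, against 17.8%). These were GINS1, RFC1, RFC4, POLA2, RRM2, DTL and UHRF1, of which GINS1 averaged under the filter in the miR-4728-3p control arrays. The smallest adjusted p-values were 0.0943 for RFC1 (0.47 ± 0.16 SE) and 0.100 for RRM2 (-0.52 ± 0.18). RRM2 passed with array weights and without mimic 4 or control 1 of the miR-4728-3p experiment, and RFC1 without control 4 of that experiment. For RFC3, the probe called with miR-1 gave -0.16 with miR-4728-3p, a difference of 0.27 ± 0.13 (adjusted p = 0.337). Thus the RFC3, RFC1 and RRM2 values of the experiments were not told apart by this test, and neither were they shown to be alike.

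Gene by gene, 27 of the 46 members had values below 0 in both experiments (58.7%, against 30.5% of the 10367 genes tested in both), 2 had values above 0 in both and 17 had opposite signs. Under median scaling 15 of 46 were below 0 in both (32.6%, against 18.4% of 10351 genes). Taken singly, the experiments had 35 (miR-4728-3p) and 36 (miR-1) of 46 members below 0, or 23 and 34 under median scaling. Counts of this size below 0 in both follow from those, and are not evidence of agreement gene by gene. The experiments have no arrays or controls in common. Among the 27 genes, GINS2 gave -0.36 with miR-4728-3p and -0.28 with miR-1, and CDT1 gave -0.25 with miR-4728-3p and -0.30 with miR-1. Of the MCM genes, MCM2, MCM3 and MCM5 gave -0.26, -0.25 and -0.24 with miR-4728-3p, and -0.23, -0.35 and -0.29 with miR-1. MCM4 had opposite signs, 0.12 with miR-4728-3p and -0.13 with miR-1. Among members with an E2F word in the promoter window, 18 of 21 were below 0 with miR-4728-3p (median -0.11) and 17 of 21 with miR-1 (median -0.12). Among those whose window held none, 13 of 19 were below 0 with miR-4728-3p (median -0.04) and 14 of 19 with miR-1 (median -0.13). Under median scaling these counts were 15 of 21 with miR-4728-3p and 16 of 21 with miR-1 for members with a word. For those without, they were 6 of 19 and 13 of 19. With quantile normalization, 56.1% of all genes were below 0 with miR-4728-3p and 51.8% with miR-1. Only exact words were searched, so a window without one is not evidence that E2F control is absent.

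**Figure D5:**
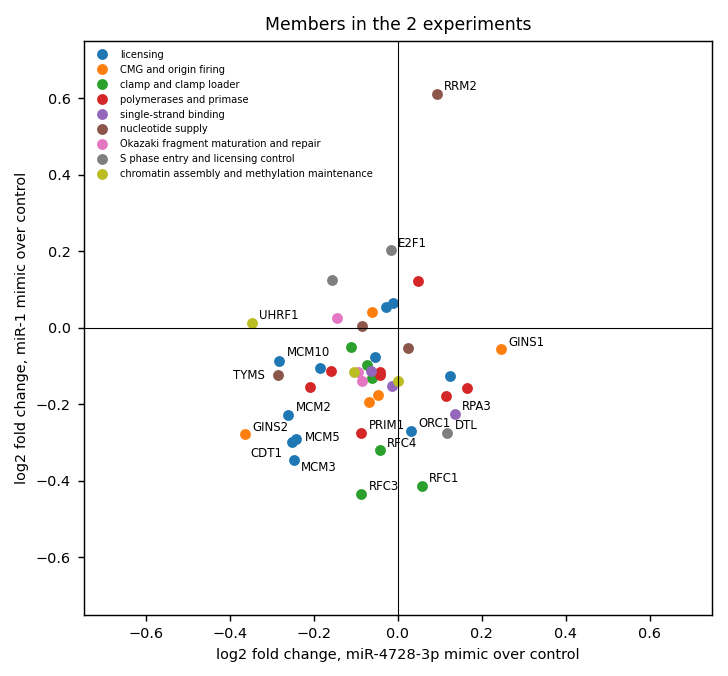
Log2 fold change of each tested member with miR-4728-3p over control (x axis, 6 arrays a group) and with miR-1 over control (y axis, 4 arrays a group), coloured by role; each point is a gene, and RFC3 and PRIM2 are read from different probes in the 2 experiments. Points at the lower left of both zero lines are the 27 genes below 0 in both, among them GINS2, CDT1 and MCM3, and RRM2 lies alone at 0.61 on the y axis.

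Other genes around the replication machinery were read from 5 further lists. Of 31 other replication and fork genes, 0 were called with miR-4728-3p (limma). At an unadjusted p under 0.05, 3 were lower and 2 higher, against 11.2% and 8.1% of all genes. POLE3, a histone-fold partner of polymerase epsilon, was nearest to a call at -0.35. With miR-1, 1 of 31 was lower (against 1.24% of all genes), MTBP at -0.40, a partner of the origin firing factor Treslin. That count was 0 under median scaling and without any of mimic 1, 2 or 3 or control 1 or 3, and 2 with the probes of a gene averaged. For nucleotide and histone supply, 0 of 13 were called with miR-4728-3p (limma, with 1 lower and 1 higher unadjusted). With miR-1, 1 of 12 was lower (against 1.24% of all genes), the histone chaperone NASP at -0.31. That count became 0 on leaving out any of the 8 arrays, with an offset of 16 and under median scaling. Of 11 genes of homologous recombination and mismatch repair, 0 were called with either mimic (limma). Unadjusted, 0 were lower and 1 was higher with miR-4728-3p. With miR-1, 3 were lower (against 8.35% of all genes) and 0 higher.

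The genes upstream of S phase gave the largest values outside the interferon list. Of 25 other E2F and RB pathway genes tested with miR-4728-3p, 4 were lower and 1 was higher (against 3.8% and 3.94% of all genes; 2 lower under median scaling), with CDK6 at -0.62 and CCND2 at -0.60, a kinase and a cyclin that inactivate RB, E2F4, a repressive E2F factor, at -0.45, and CCND3, another D-type cyclin, at 0.39. With miR-1, 1 of 26 was higher (against 1.45% of all genes) and 0 were lower (against 1.24%). The higher gene was CDKN1A at 0.89 (limma adjusted p = 0.00109), which encodes the CDK inhibitor p21. CDK4, a partner of the D-type cyclins, gave -0.27 (adjusted p = 0.0923). Of 24 G2 and mitosis genes, 2 were lower with miR-4728-3p, AURKA at -0.38 and CENPA at -0.35, which encode a mitotic kinase and the centromeric histone, and 22 of the 24 were below 0 (median -0.17, against 3.8% of all genes lower and 56.1% below 0). The count below 0 and the median of this list were taken with quantile normalization only, not under median scaling. The count lower fell to 0 or 1 in 4 of the 10 other settings. Among them were 0 under median scaling and 1 with an offset of 16 or no filter. On leaving out arrays it was 1 to 4. It was 1 without any of mimic 2, 4, 5 or 6 or control 2, 3, 5 or 6, and 4 without control 1. With miR-1, 0 of these 24 were called (limma). Unadjusted, 1 was lower and 1 higher (against 8.35% and 7.19% of all genes). Of the 24, 13 were below 0 (median -0.02, against 51.8% of all genes below 0).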

How the data were processed

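RNA of MCF 10A cells was hybridised to Illumina HumanHT-12 arrays (12 in the miR-4728-3p experiment, 8 in the miR-1 experiment). The authors deposited unnormalized bead intensity values with no background correction named, and a second set of intensity values after their own normalization in the BASE server software; 0 columns of samples were left unused. From the unnormalized intensities, background was corrected with normexp (offset 50), arrays were quantile normalized within each experiment and log2 values were compared, mimic over control, with lmFit and eBayes in limma 3.58.1 (R 4.3.3). Probes with a mean log2 value above the median of all log2 values of the experiment (6.36 and 6.17) were tested, giving 20919 and 22031 probes, and p-values were adjusted by Benjamini and Hochberg over all of them. For a gene with several tested probes, the brightest on average stood for it. Probes were named from the platform annotation, under which 27578 and 30113 probes had 1 gene, 13 and 8 had several and were left unnamed, and 21212 and 17202 had none. Groups are those of the labels. The difference between the mimics was fitted over all 20 arrays on probes tested in both.

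The members, the lists and the tests were chosen with earlier results of these data known. All 47 members were accounted for. Values per array were given for members that passed, for those whose groups did not overlap and for the 6 largest changes of each experiment, and up to 4 genes were named from each list. Replicate numbers were not used as pairs in the main fits. The limma step was also run on simulated arrays with the probes' means and spreads. Of the tested probes changed by 0.3 on the log2 scale, it called 6 of 88 in the miR-4728-3p design and 8 of 95 in the miR-1 design. At a change of 0.6 it called 49 of 81 and 54 of 78. Only 100 probes were changed at each size, whereas 915 (miR-4728-3p) and 320 (miR-1) genes were called in the data. The adjustment was thus stricter in the simulation, and these shares do not give the sensitivity of the main fits. Each result was run again with the values normalized by the authors, without background correction, with an offset of 16, median scaling, other filters, the replicate number as a block, a trended robust fit, array weights, the mean over the probes of a gene (not for the difference between the mimics, which is read on shared probes), and leaving out each array; the other probes of called genes were added after seeing the data. Motifs and figures were made with Python 3 (pandas, matplotlib).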

Additional observations from a re-analysis of the deposited data

How the results depend on the processing

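RRM2 with miR-1 kept its direction and its call under every setting run. The count of members lower with miR-4728-3p was 1 and became 2 with the authors' normalized values, no background correction, the filter at the 75th percentile or the mean over the probes of a gene, 3 with a trended robust fit, and 0 with an offset of 16, median scaling, no filter, the replicate block or array weights. Leaving out arrays gave 0 to 2. Their median log2 fold change became 0.0022 under median scaling, and -0.09 to -0.05 on leaving out arrays. The count higher with miR-4728-3p was 0 under every setting. The count of members lower with miR-1 was 2 and became 6 with the authors' normalized values or no background correction (CDT1, GINS2, MCM3 and RFC4 in addition), 4 with the filter at the 75th percentile, 3 with a trended robust fit, array weights or the mean over the probes, 1 with an offset of 16, and 0 with median scaling or the replicate block. Leaving out arrays gave 0 to 2. Their median became -0.0746 under median scaling, and -0.15 to -0.09 on leaving out arrays. The count higher with miR-1 was 1 throughout. Members whose difference between the mimics passed numbered 0, but 1 with array weights, and 0 to 1 on leaving out arrays. The causes of these changes were not tested. Some settings leave fewer probes or arrays.

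With the replicate block, the adjusted p was 0.0658 for GINS2 (miR-4728-3p), 0.0843 for RFC1 and 0.0516 for RFC3 (miR-1), and all genes called lower and higher numbered 348 and 417 (449 and 466 without it) with miR-4728-3p and 37 and 67 (147 and 173) with miR-1. Deviations of samples with the same number correlated at -0.12 to 0.06 with miR-4728-3p and -0.39 to 0.04 with miR-1. No mimic sample correlated best with the control of its own number. Whether samples of the same number were handled together is not settled by these values, and the methods do not say. Calls over all genes also moved with median scaling, to 145 lower and 433 higher with miR-4728-3p and 20 and 76 with miR-1, and with an offset of 16, to 83 and 99 with miR-1. Small changes are at the limit of these arrays, at 4 or 6 a group, and a member that missed the threshold is not shown to be unchanged.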
